A study of Rattus norvegicus with 62 samples.

Results

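The genes described here are 9 members of neuregulin and EGF family signaling: the ligands Nrg1, Btc, Areg, Hbegf and Tgfa and the receptors Erbb3, Erbb2, Erbb4 and Egfr. They were taken by gene symbol from the 40982 genes counted in rat L4 dorsal root ganglia, and each has 1 row in each of the 2 count tables. Chronic constriction injury (CCI), in which loose ligatures are tied around the sciatic nerve, is a model of neuropathic pain. The groups were male rats 24 h (6 libraries a side), 1 week (7 a side) and 5 weeks (5 a side) after CCI and female rats 1 week (7 a side) and 5 weeks (6 a side) after CCI, 62 libraries in 10 groups. In each of these 5 arms the ipsilateral ganglion, on the side of the injury, was compared with the contralateral ganglion as control. All animals carried the injury, so a contralateral ganglion came from an injured rat, and no sham-operated or uninjured rats were analysed here. Strain and age are not given in the sources used here.

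EGF family ligands are made as membrane-anchored precursors that proteases release, and they bind receptor tyrosine kinases that pair up when a ligand binds. NRG1 binds ERBB3 and ERBB4. ERBB2 has no ligand of its own and ERBB3 has almost no kinase activity, so the pair of them forms the working receptor. In peripheral nerve, NRG1 carried by sensory and motor axons acts through ERBB2 and ERBB3 on Schwann cells and governs their survival, their migration and the thickness of the myelin they make. EGFR is the receptor of AREG, TGFA, HBEGF and BTC, and the last 2 of these ligands also bind ERBB4.

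Library totals were 18.9 M to 33.5 M estimated counts (M for mega) in the first count table (males at 1 and 5 weeks, 24 libraries) and 16.9 M to 26.6 M in the second (females and males at 24 h, 38 libraries). Atf3, a transcription factor gene induced in axotomized neurons, separated the sides in every arm: its lowest ipsilateral level over all arms was 145 CPM (counts per M of the scaled library total) and its highest contralateral level 13.4 CPM. The 16 neuron markers looked up summed to between 19429 and 30350 CPM, none of them at 0 in a whole group. In females at 1 week, the share of ribosomal RNA counts was 1.69% to 2.76% contralaterally and 0.692% to 1.42% ipsilaterally, without overlap. A fit with this share as a covariate can hardly tell it from side in that arm. In the other 4 arms the sides overlapped in that share. Reads came from whole ganglia, so fewer cells of a type and less RNA per cell cannot be told apart. The labels of the first table do not name animals. In both tables p-values measure the spread between libraries, and the sides of an animal are not paired unless a replicate block is named.

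A gene was called where edgeR's quasi-likelihood test gave a Benjamini-Hochberg adjusted p under 0.05 over all genes of the fit. At 24 h in males 1 of 9 tested members was called, Areg, which rose, against 14.1% of 18125 genes called (8.23% higher and 5.9% lower). In males at 1 week 7 of 8 tested members were called, Btc, Erbb2, Erbb3 and Egfr higher and Nrg1, Tgfa and Erbb4 lower, against 47% of 18980 genes (23.6% higher, 23.4% lower). In males at 5 weeks 4 of 8 were called, Btc, Erbb2 and Erbb3 higher and Nrg1 lower, against 34.7% (16% higher, 18.7% lower). In females at 1 week 5 of 9 were called, Erbb2 and Erbb3 higher and Nrg1, Tgfa and Erbb4 lower, against 45.7% (23.9% higher, 21.8% lower). In females at 5 weeks 5 of 9 were called, Areg, Erbb2, Erbb3 and Egfr higher and Nrg1 lower, against 42% (22.9% higher, 19.1% lower). Areg had too few counts to be tested in the first table, and in the second it passed the count filter through ipsilateral libraries alone. With from 34.7% to 47% of all genes called in each arm from 1 week on, the share of members called was near the background in 3 of these 4 arms, and the direction and size of each member carry the description below. The median log2 fold change of the tested members was -0.08 at 24 h, -0.01 and 0.19 in males at 1 and 5 weeks, and 0.18 and 0.41 in females at 1 and 5 weeks, while the median over all genes tested lay between -0.01 and 0.01.

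**Figure D1:**
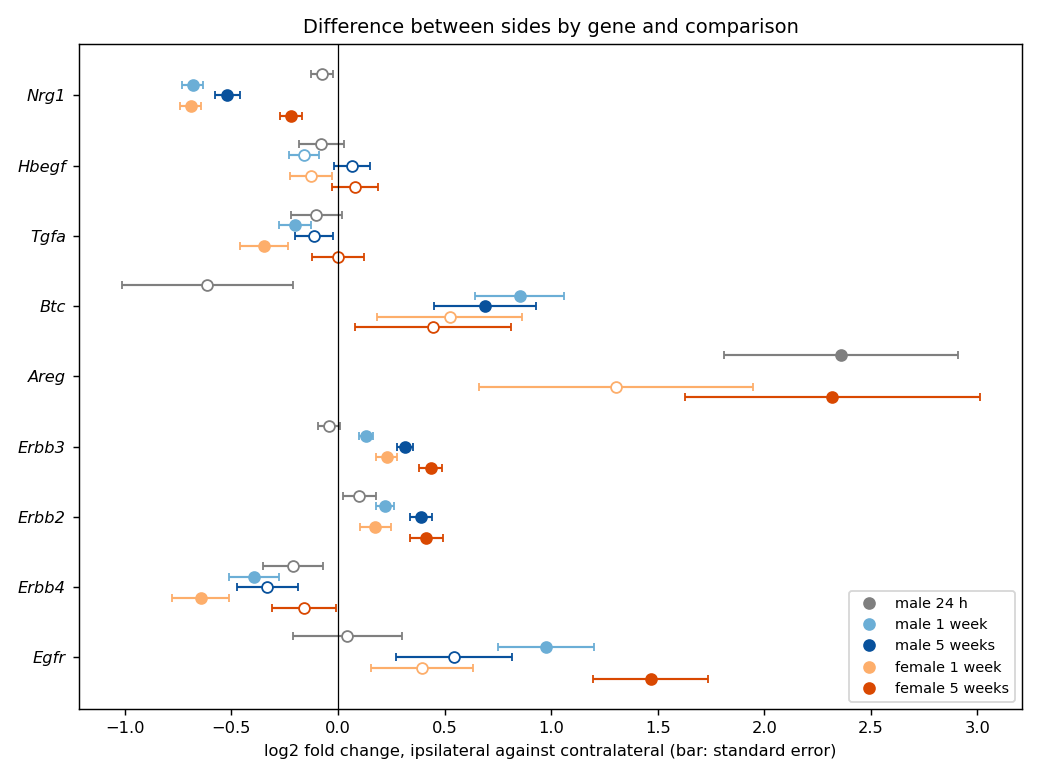
Log2 fold change of the ipsilateral against the contralateral side for each member (rows) in each of the 5 arms (colours), with the standard error as a bar; filled points passed an adjusted p of 0.05. Nrg1 lies left of zero and Erbb2 and Erbb3 right of zero in all 4 arms from 1 week on, while at 24 h Areg is the only filled point.

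Levels were compared between genes as CPM per kilobase (kb) of the exon length given in the tables. That length is combined over the exons of a gene: 20.7 kb for Nrg1, 1.55 kb for Hbegf and 0.611 kb for Btc. The order per kb depends on it, and in CPM Nrg1 lay above Hbegf (means 201 and 23.8 in contralateral males at 1 week). In contralateral ganglia of males at 1 week Erbb3 was highest, at 35.4 ± 1.52 (SD, n = 7), followed by Hbegf at 15.4 ± 0.934 and Nrg1 at 9.66 ± 0.476 CPM per kb. Tgfa at 6.76 ± 0.694 and Erbb2 at 5.90 ± 0.378 CPM per kb overlapped in range. Egfr at 1.22 ± 0.412, Btc at 0.623 ± 0.149 and Erbb4 at 0.584 ± 0.0386 CPM per kb formed a lower group in which each overlapped its neighbour. Areg was lowest, at 0.050 ± 0.0345 CPM per kb. Both partners of the NRG1 receptor pair thus stood far apart in level: Erbb3 lay between 30.2 and 42.7 CPM per kb and Erbb2 between 4.86 and 7.36 CPM per kb over the 10 group means. On the ipsilateral side of the same males the order around Nrg1 differed, with Erbb2 at 6.88 ± 0.225, Nrg1 at 6.03 ± 0.529 and Tgfa at 5.88 ± 0.574 CPM per kb overlapping as neighbours.

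Nrg1 (GeneID 112400), the ligand that axons present to Schwann cells, lies at chr16:59250658-60303024 on the plus strand of mRatBN7.2. Its level fell on the injured side in both sexes from 1 week on. In males at 1 week the contralateral libraries had 188 to 218 CPM (median 202) and the ipsilateral libraries 107 to 140 CPM (median 126). In males at 5 weeks the contralateral libraries had 194, 195, 222, 222 and 217 CPM and the ipsilateral libraries 141, 147, 158, 143 and 142 CPM, in the order of their replicate numbers. In both of these arms every ipsilateral library lay below every contralateral library. The mean was 37.6% lower at 1 week (log2 fold change -0.68, SE 0.0495, adjusted p = 4.27e-11) and 30.3% lower at 5 weeks (-0.52, SE 0.0587, adjusted p = 1.81e-07).

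Females showed a similar fall of Nrg1 at 1 week and a smaller one at 5 weeks. At 1 week the contralateral libraries had 193 to 223 CPM (median 202) and the ipsilateral libraries 112 to 142 CPM (median 125), 38.1% lower in the mean (-0.69, SE 0.0483, adjusted p = 1.31e-14). At 5 weeks the contralateral libraries had 188 to 210 CPM (median 194) and the ipsilateral libraries 161 to 181 CPM (median 165), 14.2% lower in the mean (-0.22, SE 0.0519, adjusted p = 7.51e-04). The ranges of the sides did not overlap in either female arm, although the gap at 5 weeks was narrow. At 24 h in males the sides overlapped: 192 to 220 CPM (median 200) contralaterally and 174 to 211 CPM (median 190) ipsilaterally, with 5 of 6 pairs lower on the injured side (-0.08, SE 0.0518, adjusted p = 0.360). Contralateral Nrg1 stayed within a narrow band, with group means from 197 to 210 CPM.

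The summed level of neuron markers was also lower on the injured side in the 4 arms where Nrg1 fell. The summed level of the 16 neuron markers was 26150 to 27960 CPM contralaterally and 19429 to 24413 CPM ipsilaterally in males at 1 week, and 26594 to 28375 against 21228 to 25326 CPM in females at 1 week. At 5 weeks it was 25681 to 30070 against 21218 to 25637 CPM in males and 27972 to 30350 against 23791 to 25552 CPM in females, and at 24 h 24797 to 28287 against 25371 to 30256 CPM. Of the 16 markers 5 were higher and 8 lower in males at 1 week, 3 and 8 in males at 5 weeks, 4 and 8 in females at 1 week, 2 and 5 in females at 5 weeks, and 2 and 0 at 24 h. Among all genes, 23.6% were higher and 23.4% lower in males at 1 week, and 16% and 18.7% at 5 weeks. In females the shares were 23.9% and 21.8%, then 22.9% and 19.1%, and at 24 h 8.23% and 5.9%. The median log2 fold change of the 16 was -0.10 and -0.21 in males at 1 and 5 weeks, -0.09 and -0.06 in females, and 0.11 at 24 h. Much of the sum came from the neurofilament genes Nefl and Nefh (median 7851 and 7184 CPM over 62 libraries). Nefl fell by 0.90 in males and by 0.83 in females at 1 week on the log2 scale. Snap25, a synaptic vesicle fusion protein gene, fell by 0.77 and 0.63, while Tubb3, a neuronal tubulin gene, rose by 0.50 and 0.62. Across the 62 libraries, with group means removed, Nrg1 correlated with the mean of the neuron markers at r = 0.61, a description over libraries that also share depth and composition. By the same measure Nrg1 ran against markers of endothelium and mural cells (-0.53), macrophages (-0.52) and fibroblasts and perineurium (-0.50). The part of the neuronal markers in the fall of Nrg1 was not tested.

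**Figure D2:**
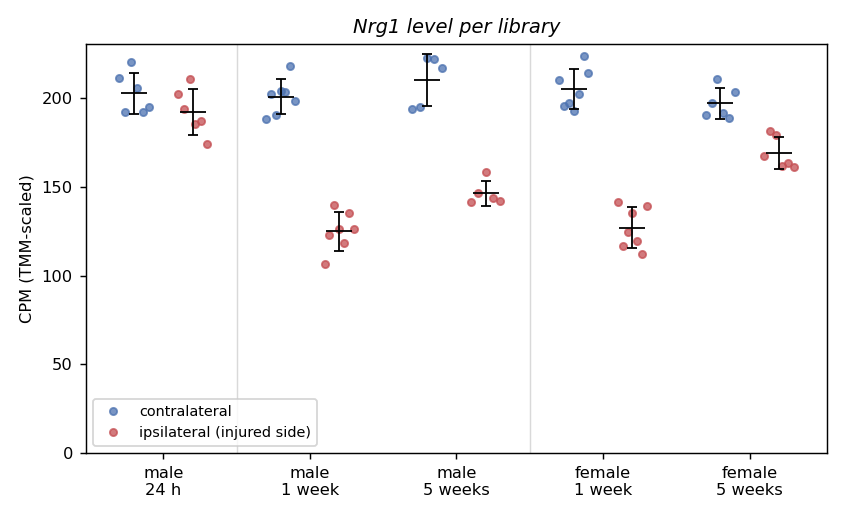
Nrg1 level per library in CPM on TMM-scaled library sizes (vertical axis, starting at 0) for the contralateral (blue) and ipsilateral (red) side of each arm; horizontal lines are group means and bars 1 SD. Ipsilateral libraries sit between 107 and 181 CPM in the 4 arms from 1 week on, each arm below its contralateral libraries, and overlap with them at 24 h.

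Btc and Areg are neighbours in a cluster of EGF family ligand genes on chromosome 14 of mRatBN7.2: Btc at chr14:16708447-16746961 on the plus strand and Areg at chr14:16972185-16981443 on the minus strand, followed by Ereg and Epgn. Both members were higher on the injured side in some arms, so their upstream sequences are shown, 250 bases before the annotated start as RefSeq gives them on build GRCr8, at chr14:16992418-16992667 (plus strand) for Btc and chr14:17265642-17265891 (minus strand) for Areg, written 5′ to 3′ on the strand of the gene. Capitals mark the cAMP response element letters TGACGTCA.
Btc: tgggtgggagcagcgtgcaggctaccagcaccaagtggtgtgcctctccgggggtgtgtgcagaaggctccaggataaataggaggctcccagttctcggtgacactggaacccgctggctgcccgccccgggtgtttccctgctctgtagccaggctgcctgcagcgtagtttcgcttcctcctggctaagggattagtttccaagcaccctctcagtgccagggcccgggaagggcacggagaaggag
Areg: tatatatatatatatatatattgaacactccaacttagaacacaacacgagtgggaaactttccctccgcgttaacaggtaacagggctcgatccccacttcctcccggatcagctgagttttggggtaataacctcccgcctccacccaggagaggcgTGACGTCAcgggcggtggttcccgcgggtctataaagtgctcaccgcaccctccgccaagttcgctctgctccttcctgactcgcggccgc
The RefSeq promoter table (300 bases a gene, 250 before the start and 50 after it) held 7 of the 9 members, without Nrg1 and Erbb3. TGACGTCA, which reads the same on both strands, was found in Areg alone of these 7, from 91 to 84 bases before the start, and in 612 of all 33469 promoters of that length (1.83%). The AP-1 letters TGACTCA, or TGAGTCA on the other strand, were in none of the 7 and in 4.63% of all promoters. These matches describe letters in a window and not bound sites.

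Areg (GeneID 29183), which encodes amphiregulin, an EGFR ligand, rose within 24 h, from very few counts. In males at 24 h it had 0 to 6 estimated counts per library contralaterally (median 1.5) and 3 to 17 ipsilaterally (median 12), higher in 5 of 6 pairs. In females at 5 weeks it had 0 to 2 counts (median 1) contralaterally and 3 to 12 (median 4.5) ipsilaterally, higher in 6 of 6 pairs without overlap. In males at 1 week it had 0 to 3 counts (median 2) against 3 to 10 (median 7), and in males at 5 weeks 2, 0, 0, 0 and 1 counts against 2, 8, 3, 7 and 9. Per scaled library total the injured side was higher in 7 of 7 and 5 of 5 pairs of males, although 1 pair at 5 weeks had 2 counts on each side, and no library reached 20 counts in any arm.

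The edgeR test gave a log2 fold change of 2.36 for Areg at 24 h (SE 0.549, adjusted p = 0.00222) and of 2.32 in females at 5 weeks (SE 0.691, adjusted p = 0.00656). Only ipsilateral libraries reached the filter's minimum count of 10, and no contralateral library had more than 6 counts. Areg was thus open to this test only through the side where it was high, which limits what these calls show. In females at 1 week 0 to 4 counts (median 1) stood against 1 to 10 (median 3), with a log2 fold change of 1.30 that was not called (SE 0.643, adjusted p = 0.0965) but passed without contralateral replicate 7 (1.74, adjusted p = 0.0447). The first table tested Areg only without the filter on low counts, where it passed in males at 1 week (2.07, adjusted p = 6.70e-04) and at 5 weeks (2.93, adjusted p = 0.00160). As ratios of summed counts per scaled library total, with exact binomial 95% intervals that cover counting error only, Areg was 5.28-fold higher at 24 h (2.83 to 10.8), 4.52-fold in males at 1 week (2.32 to 9.63), 8.79-fold in males at 5 weeks from 3 contralateral counts (2.72 to 45.1), 2.58-fold in females at 1 week (1.2 to 6.02) and 5.45-fold in females at 5 weeks (2.26 to 15.9). The genes next to Areg on its other side from Btc had almost no reads: Ereg had at most 1 count and Epgn at most 7 counts in any library.

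Btc (GeneID 64022), the gene of betacellulin, was also low and was higher on the injured side of males. At 1 week its contralateral libraries had 8 to 17 estimated counts (median 10) and the ipsilateral libraries 13 to 25 (median 20), higher in 6 of 7 pairs (log2 fold change 0.85, SE 0.209, adjusted p = 0.00158). At 5 weeks the contralateral libraries had 13, 12, 16, 8 and 15 counts and the ipsilateral libraries 12, 31, 13, 26 and 33, higher in 3 of 5 pairs (0.69, SE 0.239, adjusted p = 0.0275). In both arms the ranges overlapped, and at 5 weeks 3 ipsilateral libraries lay above all contralateral ones while the other 2 lay among them. The 5 week call was lost with the replicate number as a block (adjusted p = 0.0542) and without contralateral replicate 2 or 4 or ipsilateral replicate 2, 4 or 5 (adjusted p up to 0.0852). It was also lost in DESeq2 (0.0504), with the share of ribosomal RNA as a covariate (0.0553), with the compared groups alone (0.0812) and in the joint fit of both tables (0.0997). Females gave log2 fold changes of 0.52 (SE 0.341, adjusted p = 0.217) at 1 week and 0.45 (SE 0.366, adjusted p = 0.343) at 5 weeks, with ipsilateral libraries spread from 5 to 35 counts. At 24 h in males the value was -0.61 (SE 0.402, adjusted p = 0.348), with 5 to 18 counts contralaterally and 6 to 11 ipsilaterally.

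Hbegf (GeneID 25433; chr18:28106284-28116167, minus strand), a heparin-binding ligand of EGFR and ERBB4, was the ligand with the highest level per kb of combined exon length, though not in CPM. It was called in no arm by the edgeR test (unadjusted p under 0.05 in males at 1 week alone). It ranged from 16.7 to 38.7 CPM over all 62 libraries. Males at 1 week came nearest to a call, with 21.1 to 25.2 CPM (median 24.3) contralaterally and 19.3 to 23.3 CPM (median 21.5) ipsilaterally, lower in 6 of 7 pairs (log2 fold change -0.16, SE 0.0711, adjusted p = 0.0705). With the replicate block this difference passed (-0.16, adjusted p = 0.00368), as it did without contralateral replicate 6 (-0.18, adjusted p = 0.0451) and with the compared groups alone (-0.16, adjusted p = 0.0192). In the other arms the log2 fold change lay between -0.13 and 0.08, the sides overlapped and the adjusted p was 0.309 or more.

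Tgfa (GeneID 24827; chr4:118618043-118700897, plus strand), which encodes transforming growth factor alpha, an EGFR ligand, was lower on the injured side at 1 week. In males at 1 week it had 24.4 to 34.6 CPM (median 30.3) contralaterally and 23.3 to 30.0 CPM (median 26.4) ipsilaterally (log2 fold change -0.20, SE 0.0737, adjusted p = 0.0263). In females at 1 week it had 29.2 to 44.9 CPM (median 31.0) against 22.5 to 30.8 CPM (median 27.8), lower in 7 of 7 pairs (-0.35, SE 0.111, adjusted p = 0.0102). The sides overlapped in both arms. The male call was lost without contralateral replicate 3 or 4 or ipsilateral replicate 3, 6 or 7 (adjusted p up to 0.0793), and in the joint fit of both tables (-0.20, adjusted p = 0.0949). With the share of ribosomal RNA as a covariate the female value turned to 0.07 (SE 0.187, adjusted p = 0.841). That share did not overlap between the sides of this arm, so it can hardly be told from side there. At 5 weeks the values were -0.11 (adjusted p = 0.353) in males and 0.00 (SE 0.121) in females, and at 24 h -0.10 (adjusted p = 0.642), although all 6 pairs were lower there.

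**Figure D3:**
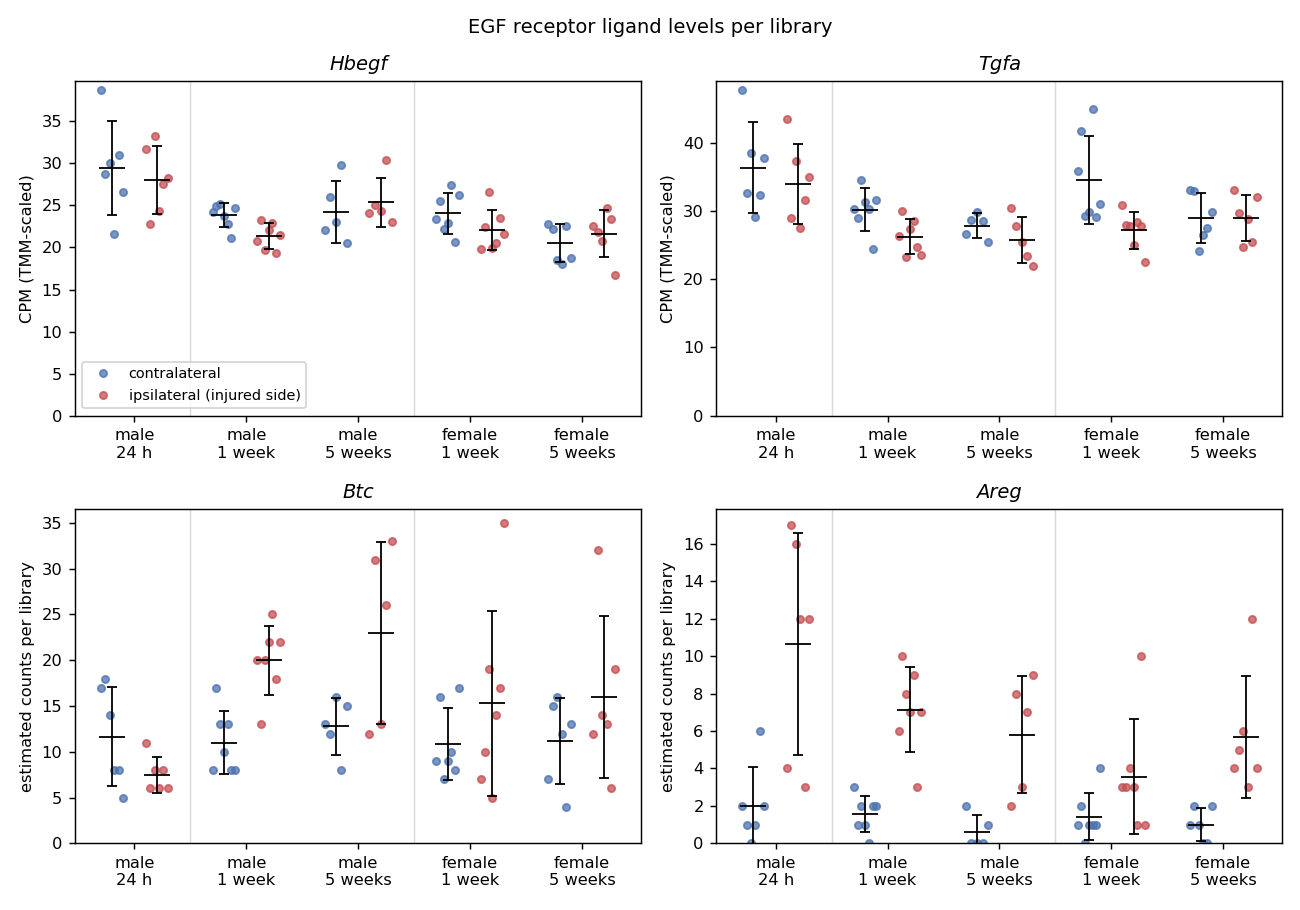
Levels of the EGF receptor ligands per library, Hbegf and Tgfa in CPM and Btc and Areg in estimated counts per library (vertical axes, starting at 0), by arm and side; lines are means and bars 1 SD. Areg counts on the ipsilateral side reach 17 at 24 h while no contralateral library exceeds 6, and the sides of Hbegf overlap in every arm.

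Erbb3 (GeneID 29496; chr7:994549-1015876, minus strand), the NRG1 receptor of Schwann cells and satellite glia, rose on the injured side in the 4 arms from 1 week on. In males at 1 week it had 209 to 233 CPM (median 223) contralaterally and 233 to 253 CPM (median 241) ipsilaterally, ranges that just touched. In males at 5 weeks the contralateral libraries had 219, 204, 216, 223 and 215 CPM and the ipsilateral libraries 267, 251, 265, 287 and 267 CPM. In these arms the injured side was higher in 7 of 7 and 5 of 5 pairs. The log2 fold change was 0.13 at 1 week (SE 0.0320, adjusted p = 0.00163) and 0.31 at 5 weeks (SE 0.0381, adjusted p = 5.66e-07).

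Female Erbb3 rose as well. At 1 week it had 190 to 224 CPM (median 207) contralaterally and 217 to 271 CPM (median 244) ipsilaterally, overlapping but higher in 7 of 7 pairs (0.23, SE 0.0487, adjusted p = 1.74e-04). At 5 weeks it had 175 to 198 CPM (median 190) against 246 to 269 CPM (median 253), without overlap (0.43, SE 0.0528, adjusted p = 2.13e-08). At 24 h in males the sides overlapped at 205 to 252 CPM (median 230) and 199 to 244 CPM (median 223), with a log2 fold change of -0.04 (SE 0.0526, adjusted p = 0.675).

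Erbb2 (GeneID 24337; chr10:83411197-83435078, plus strand), the gene of the ligandless partner of ERBB3, moved in the same direction. At 1 week in males it had 29.6 to 34.5 CPM (median 33.9) contralaterally and 36.4 to 40.1 CPM (median 38.3) ipsilaterally. In males at 5 weeks the contralateral libraries had 32.2, 35.1, 30.3, 29.8 and 28.9 CPM and the ipsilateral libraries 42, 41.0, 37.9, 41.4 and 42.5 CPM. In females at 5 weeks it had 25.3 to 29.5 CPM (median 26.8) against 34.3 to 38.8 CPM (median 35.3). The sides did not overlap in these 3 arms, and the log2 fold changes were 0.22 (SE 0.0436, adjusted p = 1.78e-04), 0.39 (SE 0.0524, adjusted p = 2.42e-06) and 0.41 (SE 0.0784, adjusted p = 5.04e-05).

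At 1 week in females the rise of Erbb2 was the least certain. The contralateral libraries had 29.0 to 36.8 CPM (median 30.2) and the ipsilateral libraries 33.7 to 40.1 CPM (median 35.1), higher in 5 of 7 pairs (0.18, SE 0.0716, adjusted p = 0.0432). This call was lost without contralateral replicate 3, 4, 6 or 7 or ipsilateral replicate 1, 3 or 6 (adjusted p up to 0.0989), with DESeq2's scaling factors in edgeR (0.0560), without the filter on low counts (0.0775), with the share of ribosomal RNA as a covariate (0.176) and in DESeq2 itself (0.0537). At 24 h Erbb2 had 25.7 to 41.5 CPM (median 35.0) contralaterally and 33.0 to 41.1 CPM (median 36.8) ipsilaterally (0.10, SE 0.0774, adjusted p = 0.446).

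Both receptors of the NRG1 pair rose while Schwann cell markers split. Over all genes, 47% and 34.7% were called in males at 1 and 5 weeks, and 45.7% and 42% in females. Of 13 tested markers of repair and nonmyelinating Schwann cells 8 were higher and 1 lower in males at 1 week, and 9 and 1 at 5 weeks. In females it was 8 and 2 of 12 at 1 week, and 8 and 0 of 12 at 5 weeks. Their summed level was 2599 to 2929 CPM contralaterally and 3122 to 3354 CPM ipsilaterally in males at 1 week, 2886 to 3065 against 3360 to 3752 CPM in males at 5 weeks, 2850 to 3261 against 3425 to 3719 CPM in females at 1 week and 2869 to 3005 against 3655 to 3883 CPM in females at 5 weeks. The list includes Gap43, a growth-associated gene that injured neurons also express and that rose by 1.45 to 1.75 in these 4 arms on the log2 scale. Much of the sum came from Scn7a, Ngfr and L1cam (median 855, 790 and 587 CPM over 62 libraries). Olig1, Gdnf and Artn had medians of 0, 0.175 and 1.48 CPM. Which cells the transcripts of this list came from was not tested. One gene of the list was at 0 in all contralateral libraries of males at 24 h and at 5 weeks. Within groups neither receptor followed this list (r = 0.13 for Erbb3 and 0.06 for Erbb2 over 62 libraries), and both followed myelinating Schwann cell markers more closely (r = 0.49 and 0.56). Of 10 satellite glia markers 3 were higher and 5 lower in males at 1 week, and 1 and 2 at 5 weeks. In females they were 1 and 2 at 1 week, and 3 and 0 at 5 weeks. Within groups these markers correlated at r = 0.16 with Erbb3 and 0.19 with Erbb2. The part of Schwann cell and satellite glia numbers in the rise of Erbb2 and Erbb3 was not tested.

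Erbb4 (GeneID 59323; chr9:69523733-70596743, minus strand), an NRG1 receptor with an active kinase, fell at 1 week. At 1 week in males it had 6.40 to 7.92 CPM (median 7.40) contralaterally and 3.84 to 7.22 CPM (median 5.76) ipsilaterally, lower in 7 of 7 pairs (log2 fold change -0.40, SE 0.117, adjusted p = 0.00711). At 1 week in females it had 8.93 to 12.4 CPM (median 10.5) against 5.70 to 8.30 CPM (median 6.89), without overlap (-0.64, SE 0.134, adjusted p = 1.31e-04). Erbb4 thus went against the other 2 receptors of the NRG1 system in both sexes at that time. With the share of ribosomal RNA as a covariate, which did not overlap between sides there, the female value was -0.25 and not called (adjusted p = 0.489).

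At 5 weeks in males the contralateral libraries had 6.19, 7.10, 6.87, 8.40 and 5.36 CPM of Erbb4 and the ipsilateral libraries 5.72, 5.98, 5.52, 5.20 and 4.53 CPM. All 5 pairs were lower on the injured side, the ranges overlapped, and the difference was not called (-0.33, SE 0.143, adjusted p = 0.0752). It passed with the replicate block (-0.33, adjusted p = 0.0384) and without contralateral replicate 5 (-0.38, adjusted p = 0.0477). In females at 5 weeks 6.09 to 8.49 CPM (median 6.39) stood against 4.45 to 8.23 CPM (median 6.52), with a log2 fold change of -0.16 (SE 0.15, adjusted p = 0.408). At 24 h the sides had 7.49 to 14.1 CPM (median 12.8) and 8.33 to 14.5 CPM (median 9.59), with a log2 fold change of -0.21 (SE 0.142, adjusted p = 0.358).

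Tgfa and Erbb4, the members that fell at 1 week beside Nrg1, followed markers of myelinating Schwann cells within groups (r = 0.67 and 0.64 over 62 libraries), as Hbegf did (r = 0.74). Over all genes, 23.4% were lower in males and 21.8% in females at 1 week, and 18.7% and 19.1% at 5 weeks. Of the 10 markers 9 fell in males and 9 in females at 1 week, 1 and 2 at 5 weeks, and none was called at 24 h. Their summed level was 16847 to 26785 CPM contralaterally and 12651 to 19200.1 CPM ipsilaterally in males at 1 week, and 16532 to 32158 against 13817 to 17096 CPM in females at 1 week. At 5 weeks it was 13398 to 17793 against 11206 to 14761 CPM in males and 10304 to 15384 against 7949 to 13427 CPM in females. None of the 10 was at 0 in a whole group. The part of these markers in the fall of Tgfa and Erbb4 was not tested.

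Egfr (GeneID 24329; chr14:91176931-91349722, plus strand), the receptor of AREG, TGFA, HBEGF and BTC, rose in males at 1 week and in females at 5 weeks, by more than the other receptors changed in those arms. At 1 week in males it had 5.42 to 15.7 CPM (median 12.7) contralaterally and 17.3 to 29.7 CPM (median 22.7) ipsilaterally, without overlap. The mean was 1.96-fold higher (log2 fold change 0.98, SE 0.227, adjusted p = 0.00121). In females at 5 weeks it had 3.46 to 16.3 CPM (median 7.44) against 9.04 to 26.9 CPM (median 23.2), overlapping but higher in 6 of 6 pairs, with a 2.75-fold higher mean (1.47, SE 0.270, adjusted p = 4.50e-05). One contralateral library, replicate 4 at 16.3 CPM, and one ipsilateral library, replicate 2 at 9.04 CPM, stood apart from the rest of their groups there. Leaving out each library of that arm in turn gave log2 fold changes from 1.31 to 1.81, all called.

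At 5 weeks in males the contralateral libraries had 16.0, 21.0, 9.28, 12.1 and 10.3 CPM of Egfr and the ipsilateral libraries 22.6, 18.8, 11.8, 25.5 and 21.7 CPM. The injured side was higher in 4 of 5 pairs with overlapping ranges, and the difference was not called (0.54, SE 0.272, adjusted p = 0.131). It passed with the replicate block (0.55, adjusted p = 0.0381) and without contralateral replicate 2 (0.75, adjusted p = 0.0419). Females at 1 week had 10.1 to 18.5 CPM (median 14.4) against 14.5 to 25.9 CPM (median 16.7), higher in 5 of 7 pairs (0.40, SE 0.239, adjusted p = 0.181), and passed with the compared groups alone (0.38, adjusted p = 0.0485). Males at 24 h had 12.0 to 20.7 CPM (median 18.8) against 9.30 to 23.3 CPM (median 19.0), with a log2 fold change of 0.04 (SE 0.256, adjusted p = 0.944). In the main fit the standard error of Egfr was 0.227 or more in every arm, against 0.0587 or less for Nrg1, so that fit was less able to detect small changes of Egfr.

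**Figure D4:**
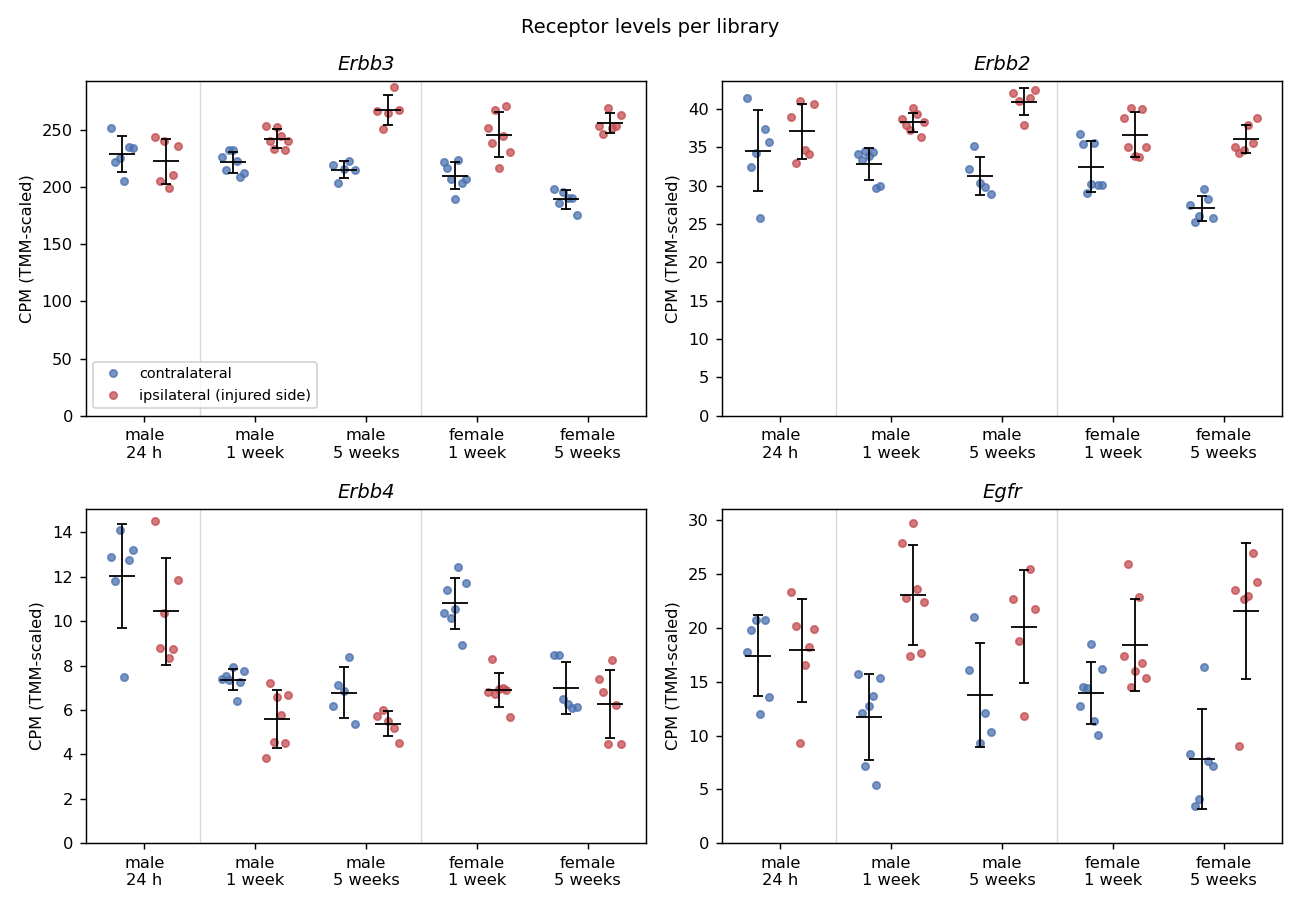
Levels of the 4 receptors per library in CPM on TMM-scaled library sizes (vertical axes, starting at 0) by arm and side; lines are means and bars 1 SD. Ipsilateral Erbb3 and Erbb2 lie above the contralateral libraries at 5 weeks in both sexes, ipsilateral Erbb4 lies below them in females at 1 week, and Egfr libraries scatter widely within each group.

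The scatter of Egfr within groups ran with markers of fibroblasts and perineurium. After removal of group means its log2 level correlated with the mean of 10 such markers at r = 0.89 and with 12 macrophage markers at r = 0.81 over 62 libraries. Egfr also followed markers of T, NK and mast cells (r = 0.63) and of endothelium and mural cells (0.55), and ran against neuron markers (-0.57). The fibroblast and perineurium markers summed to 3181 to 4862 CPM contralaterally and 4840 to 6411 CPM ipsilaterally in males at 1 week, and to 1573 to 2570 against 2442 to 3564 CPM in females at 5 weeks. Of the 10 markers, 4 were higher and 0 lower in males at 1 week and 7 and 0 in females at 5 weeks, the 2 arms in which Egfr was called. Among all genes 23.6% and 22.9% were higher in these 2 arms. In the other arms 2 and 0 (males at 5 weeks), 3 and 1 (females at 1 week) and 0 and 2 (males at 24 h) were called, with sums of 2687 to 4404 against 2452 to 4763, 2312 to 4370 against 2851 to 4074 and 4129 to 9853 against 3424 to 6853 CPM. In males at 1 week Itgb4 (log2 fold change 0.46), Krt19 (2.64) and Slc2a1 (0.26) were called higher. Col3a1, a collagen gene, was not called there (0.43, adjusted p = 0.125). Females at 1 week had Itgb4 (0.32), Krt19 (1.99) and Slc2a1 (0.23) higher and Col3a1 lower (-0.56), without an Egfr call. None of the 10 was at 0 in a whole group. Macrophage markers summed to 59.7 to 172 against 162 to 349 CPM in males at 1 week and 40.9 to 143 against 113 to 192 CPM in females at 5 weeks, with 10 of 12 higher in each. For females at 1 week, where Egfr was not called, 10 of 12 were higher too, at 66.6 to 90.9 against 137 to 272 CPM. There 23.9% of all genes were higher. The part of fibroblasts, perineurium and macrophages in the rise of Egfr was not tested.

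**Figure D5:**
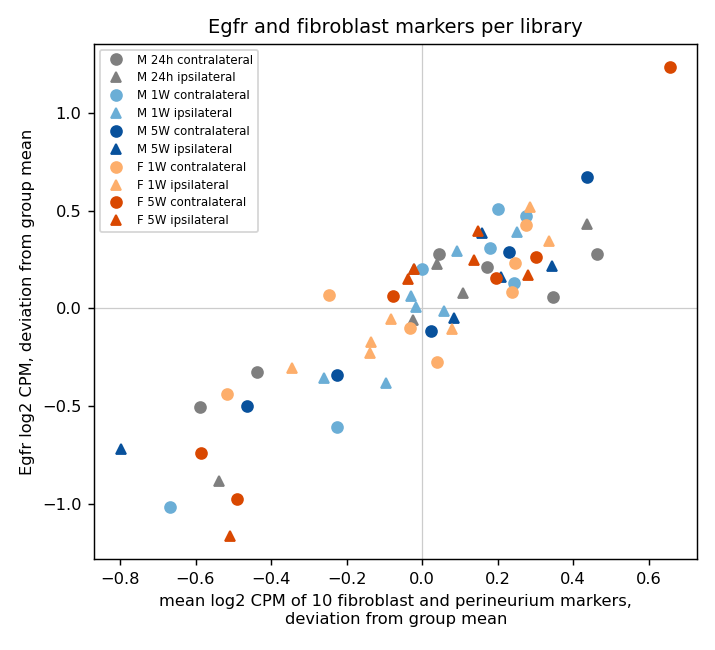
Egfr log2 CPM (vertical axis) against the mean log2 CPM of 10 fibroblast and perineurium markers (horizontal axis), each as the deviation of a library from its group mean, for 62 libraries in 10 groups (colours for arms, circles contralateral, triangles ipsilateral). Libraries with more of these markers than their group mean mostly had more Egfr (r = 0.89 over all libraries, as a description).

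Contralateral levels of some members differed between weeks. In females, 3 of 9 members were lower in contralateral ganglia at 5 weeks than at 1 week and none higher, against 10.7% of 18125 genes called (3.13% higher and 7.55% lower): Erbb2 (log2 difference -0.26, SE 0.0758, adjusted p = 0.0196), Erbb4 (-0.63, SE 0.141, adjusted p = 0.00252) and Egfr (-0.84, SE 0.264, adjusted p = 0.0342). Mean contralateral Egfr was 14 ± 2.86 CPM at 1 week (SD, n = 7) and 7.84 ± 4.60 CPM at 5 weeks (SD, n = 6). These female groups also differed in the summed fibroblast and perineurium markers (2312 to 4370 and 1573 to 2570 CPM) and in the myelinating Schwann cell markers (16532 to 32158 and 10304 to 15384 CPM). Erbb2 was lost without contralateral replicate 1 or 5 of 1 week or 2 or 6 of 5 weeks (adjusted p up to 0.0523). Egfr was lost without contralateral replicate 2, 4 or 7 of 1 week or 1, 2, 3, 5 or 6 of 5 weeks (adjusted p up to 0.101), without the filter on low counts (0.0593) and with the compared groups alone (0.102). Erbb3 was not called (-0.15, adjusted p = 0.0567) but passed without contralateral replicate 4 of 1 week (-0.17, adjusted p = 0.0282), with the stricter filter (0.0499), with the compared groups alone (0.0282) and in the joint fit (0.0391). In males 0 of 8 tested members differed between contralateral weeks by edgeR, DESeq2 or limma-voom (1 at an unadjusted p under 0.05, Btc), against 13.5% of 18980 genes called by edgeR.

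Differences were also measured against contralateral ganglia of the other week. Those came from other animals, so side, week and animal cannot be told apart in these values. Against the controls of 5 weeks, ipsilateral Erbb4 of females at 1 week differed by -0.02 (adjusted p = 0.926) and Tgfa by -0.09 (adjusted p = 0.533), while Egfr was called at 1.24 (adjusted p = 1.95e-04). Against the controls of 1 week, ipsilateral Erbb4 of females at 5 weeks was lower by 0.79 on the log2 scale (-0.79, adjusted p = 2.95e-05) and Erbb2 was no longer called (0.15, adjusted p = 0.110). Egfr of that arm was still called, but at 0.62 in place of 1.47 (adjusted p at most 0.0462). For males at 1 week Btc (0.20, adjusted p = 0.492), Tgfa (-0.09, adjusted p = 0.405) and Erbb4 (-0.28, adjusted p = 0.0833) were not called against the other week. At 5 weeks in males Tgfa (-0.23, adjusted p = 0.0236), Erbb4 (-0.45, adjusted p = 0.00673) and Egfr (0.78, adjusted p = 0.0138) were. Nrg1 and Erbb3 were called in the same direction in all 4 arms with either week.

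The differences between sides were then compared between times as interaction terms. From 1 week to 5 weeks in females, 3 of 9 members differed, against 13.5% of 18125 genes (7.66% higher and 5.88% lower), each with a higher value at 5 weeks. Nrg1 differed by 0.47 (SE 0.0708, adjusted p = 6.06e-06), since its fall was smaller at 5 weeks. Egfr differed by 1.07 (SE 0.359, adjusted p = 0.0420) and Erbb3 by 0.21 (SE 0.0717, adjusted p = 0.0497). Contralateral Egfr was itself lower at 5 weeks (log2 difference -0.84), while mean ipsilateral Egfr was 18.4 CPM at 1 week and 21.5 CPM at 5 weeks. Leaving out each library of these groups in turn kept the call in 26 of 26 fits for Nrg1, and in 7 of 26 each for Egfr (adjusted p up to 0.0838) and Erbb3 (adjusted p up to 0.0983). With the replicate block Tgfa (0.34, adjusted p = 0.00651) and Erbb4 (0.47, adjusted p = 0.0334) were called too. With the share of ribosomal RNA as a covariate Nrg1 alone was called. The Erbb3 call was also lost with upper quartile scaling (0.0933), and the Egfr call without the filter (0.0736) and with the compared groups alone (0.0600), where Erbb2 passed (0.25, adjusted p = 0.0482).

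In males 0 of 8 tested members differed between 5 weeks and 1 week in edgeR, against 0.211% of 18980 genes, with 3 at an unadjusted p under 0.05 (Nrg1, Erbb2 and Erbb3), 1 called by DESeq2 and 0 by limma-voom. The difference of Nrg1 was 0.16 (95% interval 0.01 to 0.31, adjusted p = 0.458) and that of Erbb3 0.18 (0.08 to 0.28, adjusted p = 0.143). Erbb3 was called with the replicate block (0.18, adjusted p = 0.0164) and by DESeq2 (0.19, adjusted p = 0.0306).

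Between 24 h and 1 week in males, in a fit of both tables together, 4 of 9 members differed, against 23% of 19209 genes (11% higher and 12% lower). Nrg1 was lower by 0.60 at 1 week (-0.60, SE 0.0738, adjusted p = 1.35e-08). Btc was higher by 1.47 (SE 0.460, adjusted p = 0.0144), Egfr by 0.93 (SE 0.347, adjusted p = 0.0437) and Erbb3 by 0.17 (SE 0.0633, adjusted p = 0.0405). Nrg1 and Btc kept their calls when each library was left out in turn (26 of 26 fits), while Erbb3 kept it in 14 of 26 (adjusted p up to 0.102) and Egfr in 11 of 26 (adjusted p up to 0.0895). The Erbb3 call was also lost with the compared groups alone (0.0700) and the Egfr call without the filter (0.0728). Each difference between sides was taken within 1 table, but time and count table cannot be told apart in this comparison.

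The sexes were compared in the same way, and sex and count table cannot be told apart there. At 1 week 0 of 9 members differed between females and males by edgeR, DESeq2 or limma-voom, with 0 at an unadjusted p under 0.05, against 1.11% of 19209 genes called. For Nrg1 the difference of the changes was -0.02 (95% interval -0.16 to 0.12), for Erbb3 0.09 (-0.03 to 0.21) and for Egfr -0.59 (-1.25 to 0.06). These intervals are narrow for Nrg1 and Erbb3 and wide for Egfr. At 5 weeks 0 of 9 members were called by edgeR, against 2.11% of genes, with 2 at an unadjusted p under 0.05, 1 called by DESeq2 and 0 by limma-voom. The fall of Nrg1 at 5 weeks was smaller in females by 0.26 (SE 0.0805, 95% interval 0.10 to 0.42, adjusted p = 0.0736). This difference passed with the replicate block (0.26, adjusted p = 0.0172), with DESeq2 (0.27, adjusted p = 0.0348), with a stricter filter (0.27, adjusted p = 0.0444), with the compared groups alone (0.27, adjusted p = 0.0259) and without female contralateral replicate 3, male contralateral replicate 1 or 2, or male ipsilateral replicate 3 (0.28 to 0.31, adjusted p down to 0.0226). Over 9 alternatives its adjusted p ranged from 0.0172 to 0.126, and 5 still gave no call. Egfr differed by 0.89 (95% interval 0.13 to 1.65, adjusted p = 0.307).

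The EGF family has further ligands, and 3 of 6 looked up had enough counts for a test. None was called higher in any arm and none was called at 24 h, while 2 of the 3 were lower in each arm from 1 week on. Nrg2, a ligand of ERBB3 and ERBB4, fell by 0.57 in males at 1 week, 0.57 in males at 5 weeks, 0.61 in females at 1 week and 0.66 in females at 5 weeks on the log2 scale (adjusted p from 6.50e-05 to 8.24e-04). Nrg3, an ERBB4 ligand, fell by 0.21 in males and by 0.21 in females at 1 week (adjusted p = 0.00304 and 0.00119) and by 0.17 in males at 5 weeks (adjusted p = 0.0482). Egf, an EGFR ligand, fell by 0.30 in females at 5 weeks (adjusted p = 0.0264). Ereg, Epgn and Nrg4 had at most 7 counts in any library.

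Of 11 genes for shedding of ligands and receptors, 1 was higher and 1 lower in males at 1 week, 3 and 2 in males at 5 weeks, 2 and 2 in females at 1 week, 4 and 1 in females at 5 weeks, and 1 and 0 at 24 h. In that order of arms, 47%, 34.7%, 45.7%, 42% and 14.1% of all genes were called in either direction. Bace1, the beta-secretase that cleaves NRG1, fell by 0.39 in males at 1 week (SE 0.0403, adjusted p = 2.22e-08), 0.36 in males at 5 weeks, 0.45 in females at 1 week and 0.20 in females at 5 weeks, all called. Bace1 and Nrg1 were thus lower in the same 4 arms. Rhbdf2, the gene of an inactive rhomboid protein that carries ADAM17 to the cell surface, rose by 0.36 to 0.48 in these arms. Adam10, a metalloprotease gene, rose in females at 5 weeks alone (0.36, adjusted p = 8.46e-06), as did Timp3, the gene of a metalloprotease inhibitor (0.32, adjusted p = 1.10e-06), and whether these differ from the other arms was not tested. The median log2 fold change of the list lay between -0.04 and 0.09.

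Feedback inhibitors and regulators of receptor turnover gave 4 higher and 3 lower of 19 at 24 h, 3 and 5 in males at 1 week, 3 and 7 in males at 5 weeks, 3 and 6 in females at 1 week and 6 and 2 in females at 5 weeks. The shares of all genes called, in either direction and in that order, were 14.1%, 47%, 34.7%, 45.7% and 42%. Ptpn1, a phosphatase gene, rose in all 5 arms (by 0.36 to 0.67). Usp8, a deubiquitinase gene, fell in all 5 arms, by 0.11 at 24 h and by 0.24 to 0.44 later. Dusp5, an ERK phosphatase gene, fell in all 5 arms as well (-0.45 at 24 h, -0.64 and -0.54 in males, -0.72 and -0.76 in females).

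Among 31 adaptors and kinases downstream of the receptors, 5 were higher and 1 lower at 24 h, 10 and 6 in males at 1 week, 8 and 6 in males at 5 weeks, 11 and 5 in females at 1 week, and 13 and 5 in females at 5 weeks. Beside these, 14.1%, 47%, 34.7%, 45.7% and 42% of all genes were called in either direction, in the same order. Stat3, a transcription factor gene that many cytokine receptors also use, rose by 0.54 at 24 h (SE 0.0476, adjusted p = 5.35e-11) and by 0.24 to 0.46 later. Pik3ca, a catalytic subunit gene of PI3-kinase, rose in all 5 arms by 0.26 to 0.54. Medians of this list lay between 0.01 and 0.07.

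Of 17 ERK-responsive transcripts 7 were higher and 2 lower at 24 h, 8 and 4 in males at 1 week, 7 and 4 in males at 5 weeks, 6 and 4 in females at 1 week, and 8 and 3 in females at 5 weeks. All genes called in either direction made up 14.1%, 47%, 34.7%, 45.7% and 42% in the same order of arms. Fosl1, an AP-1 subunit gene, rose by 2.44 to 3.93 and Myc by 0.56 to 1.21 over the 5 arms. Etv1, a sensory neuron transcription factor gene, fell by 0.21 at 24 h, 0.69 and 0.61 in males, and 0.71 and 0.34 in females. These transcripts respond to many receptors, and which receptor they followed here was not tested.

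A list of 20 genes linked to neuregulin and its Schwann cell program was looked up. It also held the acetylcholine receptor subunit genes Chrna1 and Chrne, so it is not specific to Schwann cells. Of the 20 genes 3 were higher and 0 lower at 24 h, 7 and 7 in males at 1 week, 6 and 1 in males at 5 weeks, 2 and 7 in females at 1 week, and 10 and 3 in females at 5 weeks. For comparison, 14.1%, 47%, 34.7%, 45.7% and 42% of all genes were called in either direction, in that order. Chrna1, an acetylcholine receptor subunit gene that neuregulin is known to induce in muscle, rose by 0.84 at 24 h and by 2.22 to 3.09 later. Erbin, the gene of an ERBB2-interacting scaffold, rose in all 5 arms by 0.22 to 0.68. Ppp3cb, a calcineurin subunit gene, fell by 0.28 to 0.43 in the 4 arms from 1 week on.

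Members correlated with each other over the 62 libraries to different degrees. With table means removed, Erbb2 and Erbb3 correlated at r = 0.83, Erbb4 with Tgfa at 0.73 and with Hbegf at 0.72, and Egfr with Erbb2 at 0.66, with Erbb3 at 0.58 and with Nrg1 at -0.54. After group means were removed too, Erbb2 and Erbb3 correlated at 0.70, and Erbb4 at 0.56 with Tgfa and 0.65 with Hbegf. Erbb2 and Erbb3 then also followed Tgfa (0.57 and 0.52) and Hbegf (0.52 and 0.54), so these members do not fall into separate sets. Egfr had within-group values of 0.27 with Erbb2, 0.06 with Erbb3 and -0.51 with Nrg1, and from 0.05 to 0.09 with Hbegf, Tgfa and Erbb4. These values are descriptions over libraries that share sides, animals and depth.

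Named by the same measure, over all 62 libraries with table means removed, the genes most like each member were the following. Nrg1 was most like Ttll7 (r = 0.96), Lgi3 (0.95) and Arap2 (0.95). Erbb3 was most like Stard13 (0.92), Entpd2 (0.89) and Tax1bp3 (0.89), and Erbb2 like Vim (0.89), Col18a1 (0.87) and Prrg4 (0.87). Erbb4 was most like Sema5a (0.89), Mob3b (0.89) and Aif1l (0.88). Tgfa was also most like Aif1l (0.82), with Caskin2 (0.81) and Cobll1 (0.80) next, and Hbegf was most like Mvb12b (0.83), S100a4 (0.82) and Nes (0.81). Egfr was most like Tspan11 (0.90), C1s (0.90) and Tgfbi (0.89), and it alone kept a value above 0.85 with each of its 3 genes after group means were removed.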

How the data were processed

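Poly-A RNA of rat L4 dorsal root ganglia was sequenced in 62 libraries. Each deposited table holds estimated counts for genes, of which 74.1% and 78.1% of nonzero values (first and second table) are whole. Per the submitters' processing notes, the tools were STAR 2.7.2b, featureCounts 1.6.4, cutadapt 2.5 and bcl2fastq 2.20.0.422, with build mRatBN7.2, and the deposited tables give exon lengths. Per the labels' protocols, reads were single-end on either of 2 sequencers; which library was read on which, and the strand setting of the counting, are not given in the sources used here. The test had been planned for counts; estimated counts were rounded, and library totals changed by 0.00140% or less.

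In R 4.3.3, edgeR 4.0.16 used TMM scaling, filterByExpr (minimum count 10), a robust quasi-likelihood test per table on groups, and Benjamini-Hochberg adjustment over 18980, 18125 or, for both tables together, 19209 genes. Standard errors come from the size of each log2 fold change over the root of its F statistic; 95% intervals of differences are normal. Levels are CPM on scaled library sizes. Alternatives used limma 3.58.1 (voom), DESeq2 1.42.0, other scalings and filters, ribosomal RNA share as covariate, only the compared groups, a joint fit, the other week's controls, a replicate block, and each library left out. Figures used Python 3.11.15.

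Same-numbered libraries of both sides share an animal code in the second table's labels, and in the first table their deviations from group means correlated in every pair (lowest 0.286), so the numbers pair the sides. Median correlations were 0.193 (24 h), 0.474 and 0.433 (males, 1 and 5 weeks), 0.351 and 0.410 (females). The main fit has no block.

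All 9 members are named; of each pathway list the 4 genes with the smallest p in any arm could be named, and for members of at least 1 CPM the 3 genes with the highest Pearson correlation (log2 CPM, prior count 2). The marker lists follow the same rule, apart from genes named for their level (Nefh, Scn7a, Ngfr, L1cam, Olig1, Gdnf and Artn). Ereg, Epgn and Nrg4 were too low for a test and were named after their counts were seen. Members and lists were chosen with earlier results of these data known. Tested on simulated data of the same depth, 1.5-fold changes were found in 56% (24 h) to 76% (females at 5 weeks) of changed genes. Far fewer genes were changed there than were called here, which makes the adjusted p stricter. These shares are therefore not those of the real tests.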

Additional observations from a re-analysis of the deposited data

Results flagged for a closer look

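Among 90 sets of libraries (9 members in 10 groups), 7 held a library far from the others by Dixon's criterion at 95%, where chance gives about 1 in 20. Hbegf had 30.4 CPM in ipsilateral replicate 4 of males at 5 weeks, against 25.1 CPM in the next library. Areg had 0.469 CPM in ipsilateral replicate 6 of females at 1 week (next 0.189), 0.559 CPM in ipsilateral replicate 5 of females at 5 weeks (next 0.287) and 0.279 CPM in contralateral replicate 5 of males at 24 h (next 0.0952), each a matter of a few reads. Erbb4 had 7.49 CPM in contralateral replicate 4 of males at 24 h (next 11.8). Egfr had 16.3 CPM in contralateral replicate 4 of females at 5 weeks (next 8.28) and 9.04 CPM in ipsilateral replicate 2 of the same arm (next 22.6).

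Differences between sides that themselves differed between times, by the interaction term of edgeR, were those of Nrg1 (0.47, adjusted p = 6.06e-06), Erbb3 (0.21, adjusted p = 0.0497) and Egfr (1.07, adjusted p = 0.0420) in females at 5 weeks against 1 week. In males at 1 week against 24 h they were those of Nrg1 (-0.60, adjusted p = 1.35e-08), Btc (1.47, adjusted p = 0.0144), Erbb3 (0.17, adjusted p = 0.0405) and Egfr (0.93, adjusted p = 0.0437).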

How the results depend on the processing

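Over 11 alternatives 956 of 1005 values of members kept their direction and their side of the threshold, 26 lost a call, 22 gained one and 1 reversed: Tgfa in females at 1 week became 0.068 with the ribosomal RNA share as covariate. With limma-voom all 104 values were kept. Leaving out 1 library kept 1751 of 1855. Members called changed from 1 to 0 at 24 h with the stricter filter and with the compared groups alone, where Areg was no longer tested (the latter called 1604 genes in place of 2560). With the other week's controls they changed from 7 to 4 in males at 1 week and from 4 to 7 at 5 weeks. The ribosomal RNA covariate took females at 1 week from 5 members to 2, Nrg1 and Erbb3, and from 8276 genes to 4060, and the female difference between weeks from 3 to 1. That share did not overlap between the sides of females at 1 week, so the covariate can hardly be told from side there. With the replicate block the female difference between weeks had 5 members, the male one 1 (DESeq2 also 1), and the sex difference at 5 weeks 1, as with DESeq2, the stricter filter and the compared groups alone. The block changed 8 of 87 calls of members, all given above, and no other.

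Without 1 library the counts of members called ranged as follows: female difference between weeks from 1, males 1 week against 24 h from 2, sex difference at 5 weeks up to 1, male contralateral weeks up to 1 (Btc, 0.77, adjusted p = 0.0425, without replicate 2 of 1 week), female contralateral weeks from 1. Areg and Btc rest on fewer than 40 counts per library, so small changes were not detectable at this depth. The causes of these changes were not tested unless fewer genes tested are named.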
